A study of Mus musculus with 30 samples.

Results

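The mucins and the goblet cell program, 10 of 55487 genes in the count files, were followed through mouse lung organoid cultures. They were picked by symbol: the mucins Muc1, Muc4, Muc5ac, Muc5b, Muc16 and Muc20, the transcription factors Spdef and Foxa3, and the goblet cell proteins Agr2 and Fcgbp. Each of the 10 was found once. Cultures combined 300000 Epcam+ lung cells, sorted as CD31-CD45- from adult wild type C57BL/6J mice of both sexes, with as many CCL206 cells, a mouse lung fibroblast line inactivated with mitomycin C. They were exposed for 72 hours to vehicle, to EC (the exacerbation cocktail of TNFα, IL-1β, IL-6 and IL-8, the last given in the methods as its mouse counterpart KC), to IPFc, or to 2 ng/ml TGF-β. IPFc is a mixture of 9 factors raised in lungs with idiopathic pulmonary fibrosis (TGF-β, TNFα and TSLP, the chemokines CCL2 and IL-8, and the interleukins IL-1β, IL-13, IL-33 and IL-4). The cells were then separated again with Epcam microbeads, and the bulk RNA of Epcam+ cells (epithelial libraries) and Epcam- cells (fibroblast libraries) was sequenced. Epithelial cells came from 4 mice, while all fibroblasts came from the same cell line. There were 4 epithelial libraries each for vehicle, EC and IPFc and 3 for TGF-β (mice 2, 3 and 4), and 4 fibroblast libraries each for EC, IPFc and TGF-β and 3 for vehicle (mice 1, 3 and 4).

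Airway mucus is built around the gel-forming mucins, very large secreted glycoproteins that cross-link into polymers. Muc5b is the gel-forming mucin of the resting mouse airway and is made largely by club cells, and Muc5ac is the one known to appear when goblet cells arise. Muc1, Muc4, Muc16 and Muc20 stay anchored in the cell membrane and cover the cell surface. Agr2 is a disulfide isomerase of the endoplasmic reticulum needed to fold gel-forming mucins, Fcgbp is a secreted protein found in mucus, and Spdef and Foxa3 are transcription factors known to drive goblet cell differentiation. IL-4 and IL-13 are known to induce this program in the airway through STAT6.

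In GRCm38.p6 (RefSeq), Muc5ac lies at chr7:141788958-141819227 and Muc5b follows it at chr7:141839059-141873089. Muc4 (chr16:32735886-32782391) and Muc20 (chr16:32777419-32797435) point toward each other on opposite strands and share 4973 bases at their ends. Fcgbp (chr7:28071236-28120864) overlaps the pseudogene Gm21925 over 27553 bases. The library kit keeps strand, but whether the counting used it is not given in the sources used here, so reads from these shared stretches carry that uncertainty. The remaining members are Muc1 (chr3:89229056-89233381), Muc16 (chr9:18495445-18674821), Agr2 (chr12:35992925-36004081), Spdef (chr17:27714446-27731003) and Foxa3 (chr7:19013283-19023539).

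Promoter sequences were taken from RefSeq (GRCm38.p6), where 8 of the 10 members had an entry and Muc5ac and Muc5b had none. Among these 8, the windows below belong to those whose rise in the epithelial libraries was clearest, Agr2 and Fcgbp with IPFc and Muc1 and Muc20 with EC. Each shows 200 bases, from base 250 to base 51 before the annotated start, 5′ to 3′ on the gene's own strand, with capitals marking motif matches.
Agr2, chr12:35992675-35992874, plus strand: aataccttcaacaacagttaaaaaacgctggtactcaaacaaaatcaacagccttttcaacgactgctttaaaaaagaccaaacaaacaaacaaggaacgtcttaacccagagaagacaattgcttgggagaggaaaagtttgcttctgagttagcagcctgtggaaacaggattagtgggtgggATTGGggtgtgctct
Fcgbp, chr7:28070986-28071185, plus strand: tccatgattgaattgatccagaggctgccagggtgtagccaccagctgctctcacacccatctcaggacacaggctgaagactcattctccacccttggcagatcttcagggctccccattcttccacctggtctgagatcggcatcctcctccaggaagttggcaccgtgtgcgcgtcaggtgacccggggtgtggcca
Muc1, chr3:89228806-89229005, plus strand: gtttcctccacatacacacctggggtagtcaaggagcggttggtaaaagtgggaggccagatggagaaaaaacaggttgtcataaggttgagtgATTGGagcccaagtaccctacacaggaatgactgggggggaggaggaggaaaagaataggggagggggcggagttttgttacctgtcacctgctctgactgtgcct
Muc20, chr16:32797486-32797685, minus strand: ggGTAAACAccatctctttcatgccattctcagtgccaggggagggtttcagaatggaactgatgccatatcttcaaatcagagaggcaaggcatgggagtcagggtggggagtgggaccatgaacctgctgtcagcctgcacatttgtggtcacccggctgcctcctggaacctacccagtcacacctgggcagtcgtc
The capitals in Agr2 and Muc1 are a CCAAT box (CCAAT), and those in Muc20 are a FOXA motif (TGTTTAC), all read on the opposite strand. Both strands of the 250 bases before the start were searched. A CCAAT box was present in 3 of the 8 members (Muc1, Agr2, Foxa3) and in 33.8% of all 32851 promoters in the table, and a TATA box (TATAAA) in 3 (Muc1, Muc4, Foxa3) and in 12.4%. The FOXA motif was present in Muc20 and in 3.17% of all promoters. The letters of a STAT6 motif (TTC and GAA with any 4 bases between, in 5.85% of promoters), a STAT motif (the same with 3 bases, 7.02%), an NF-κB motif (GGG and TTTCC with any 2 bases between, 1.41%), an AP-1 motif (TGANTCA, 6.75%) and a SPDEF motif (CCGGAT, 4.94%) were not in these windows of the 8 members. A match or its absence describes the letters of this window only.

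Between 5113828 and 20317181 reads were counted per library (median 13843287), and levels are given as a gene's reads per 1000000 counted in the library (CPM). The 12 epithelial markers summed to at least 6185 CPM in each epithelial library and to at most 5164 CPM in each fibroblast library. The labels thus held by these markers. The 12 fibroblast markers were higher in the fibroblast libraries within each treatment, but overlapped across treatments. They summed to 13124 to 14890 CPM in epithelial TGF-β libraries and to 8809 to 15687 CPM in fibroblast EC libraries. Each fraction held RNA of the other's markers. The share of the other fraction was taken as the median, over its markers, of the ratio to the other library of the same culture. By this measure the fibroblast share was 4.38 to 10.2% in epithelial vehicle libraries, 5.18 to 19.99% with EC, 4.38 to 15.3% with IPFc and 25.8 to 31.1% with TGF-β. The epithelial share in the fibroblast libraries ranged from 0.77 to 53.7%. Whether these marker reads came from cells of the other fraction or were made in the fraction itself was not tested. Immune and endothelial markers were near 0 in every library (summed level at most 14.5 and 3.54 CPM). In such bulk samples, fewer cells of a type and less RNA per cell cannot be told apart.

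With vehicle, the members spanned more than 3 orders of magnitude per transcript length in the epithelial libraries. Muc1 was highest at 109 CPM per kb of transcript, followed by Agr2 at 34.7, Muc4 at 15.6, Muc20 at 10.6 and Muc5b at 5.39 CPM per kb. Spdef stood at 1.23 and Fcgbp at 0.545 CPM per kb. Foxa3 (0.201), Muc5ac (0.0687) and Muc16 (0.0258 CPM per kb) lay at the limit of detection, and their reads are given with the results. Muc4 was matched to its transcript by symbol, since its gene identifier differed from that in the annotation.

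EC exposure was compared with vehicle to ask what the soluble factors of an exacerbation do to epithelial cells. In the epithelial libraries 4 members rose, the membrane mucins Muc20 and Muc1, the gel-forming mucin Muc5b and the transcription factor Spdef. These 4 of 10 compare with 4.41% of all 18024 genes tested that were called in either direction, and with 1.96% called higher. The median log2 fold change was 0.42 over the members and 0.00 over all genes.

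Muc20 was 24.6, 26.7, 28.5 and 18.6 CPM with vehicle in mice 1 to 4, and 61.2, 69.0, 45.2 and 24.1 CPM with EC. It was higher with EC in all 4 mice, and only the EC library of mouse 4 lay within the range of the vehicle libraries. The log2 fold change was 0.98 (SE 0.13, adjusted p = 3.84e-05).

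Muc1, which is found on nearly all glandular epithelia, was 231, 235, 295 and 221 CPM with vehicle and 385, 428, 393 and 241 CPM with EC. The increase was present in all 4 mice and smallest in mouse 4 (log2 fold change 0.57, SE 0.10, adjusted p = 0.000999).

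Muc5b was 105, 114, 75.0 and 29.4 CPM with vehicle and 207, 330.6, 113 and 28.4 CPM with EC. It was higher in mice 1, 2 and 3, while mouse 4 was at the same level in both (log2 fold change 0.87, SE 0.20, adjusted p = 0.00991). Spdef was low throughout, with 3.27, 2.40, 1.87 and 1.94 CPM with vehicle and 5.54, 6.04, 3.84 and 2.68 CPM with EC, higher in all 4 mice (log2 fold change 0.95, SE 0.23, adjusted p = 0.0182).

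Muc4 was 220.2, 212, 218 and 123 CPM with vehicle and 307, 372, 234 and 52.0 CPM with EC. It was higher in 3 mice and lower in mouse 4, and the difference was not called (log2 fold change 0.16, SE 0.21, adjusted p = 0.818). Agr2 (log2 fold change 0.26, adjusted p = 0.329) and Fcgbp (-0.04, adjusted p = 0.964) were not called either. Muc5ac had 3 to 22 reads per library with vehicle and 3 to 58 with EC (log2 fold change 1.13, SE 0.46, adjusted p = 0.239). Summed over the libraries, its reads gave a ratio of 2.43 (95% interval 1.71 to 3.49, counting error only), and the EC libraries ranged from 0.259 to 4.22 CPM.

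The summed levels of alveolar and club cell markers were lower in the same EC libraries, though not each gene. The type 2 alveolar markers summed to 6529 to 7693 CPM against 10370.4 to 13645 CPM with vehicle (5 of 6 lower), the type 1 markers to 1136 to 1269 against 1490.0 to 1833 CPM (3 of 6 lower), and the club cell markers to 1181 to 1736 against 1764 to 2358 CPM (3 of 6 lower, 1 higher). None of these ranges overlapped, and none of the genes in these lists was at 0. The ranges of ciliated cell markers (41.7 to 82.0 against 34.8 to 64.4 CPM) and basal cell markers (28.8 to 568 against 15.3 to 896 CPM) did overlap. With IPFc the type 1 markers were also below every vehicle library (1204 to 1418 CPM). For EC-exposed epithelial cells, the paper reports club cell and bronchial goblet cell signatures as enriched, with Scgb1a1 reduced. Those signatures use other lists of marker genes than the sums given here. The part of these cell types in the members' changes was not tested.

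The calls of Muc20 and Muc1 held in all 13 alternative analyses, but that of Muc5b in 7 and that of Spdef in 8, and without mouse 1 or mouse 2 only 2 members were called. Without the EC library of mouse 4, Muc4 was also called (log2 fold change 0.47, adjusted p = 0.013).

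**Figure D1:**
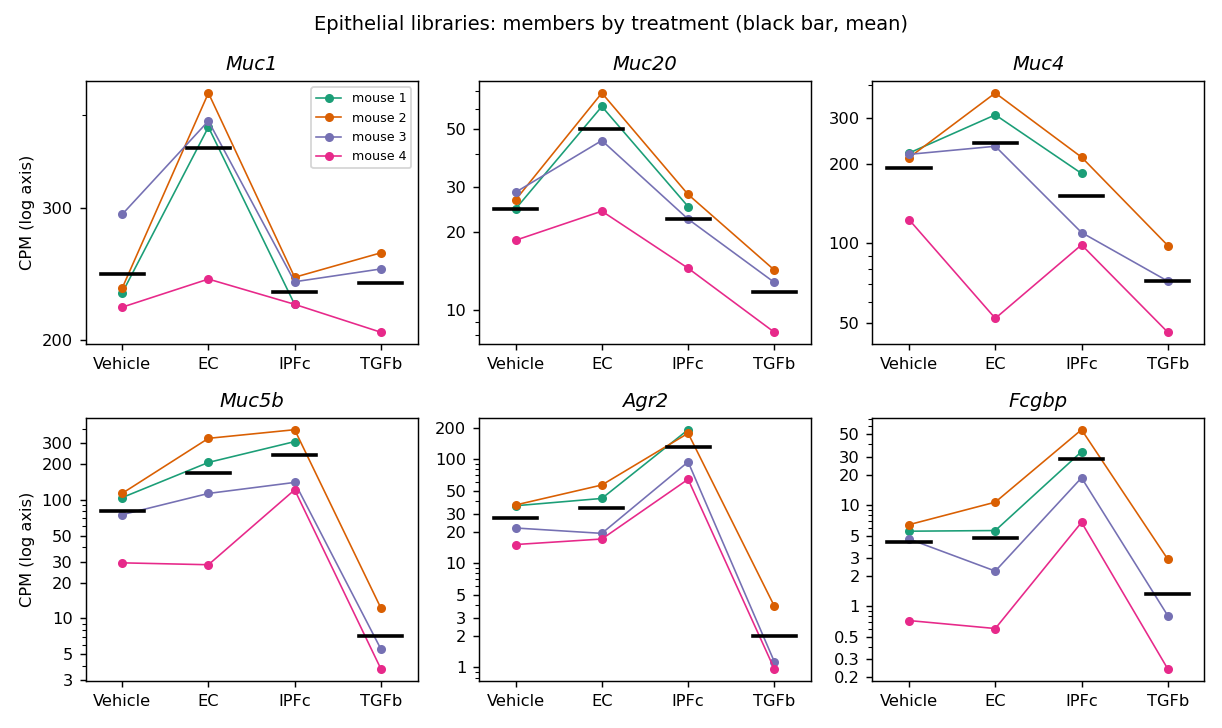
Level of the 6 members with the most reads in each epithelial library, in CPM on a log axis, by treatment. Points are libraries joined within a mouse and black bars are group means; Muc1 and Muc20 peak with EC, Agr2 and Fcgbp with IPFc, and all but Muc1 are lowest with TGF-β.

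IPFc raised a partly different set, with Muc5b in common with EC. Agr2, Fcgbp and Muc5b were higher, 3 of 10 members, against 4.10% of all genes called and 2.57% called higher. The median log2 fold change was 0.09 over the members and 0.01 over all genes. Each of the 3 was higher than vehicle in all 4 mice, with ranges that did not overlap.

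Agr2 was 35.7, 36.4, 21.9 and 15.2 CPM with vehicle in mice 1 to 4, and 192, 178, 94.4 and 64.2 CPM with IPFc. The mice kept a similar order in both groups, with mouse 4 lowest. The log2 fold change was 2.23 (SE 0.12, adjusted p = 1.3e-10).

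Fcgbp was 5.53, 6.41, 4.63 and 0.726 CPM with vehicle and 33.7, 55.5, 18.6 and 6.76 CPM with IPFc. Even the lowest IPFc library, that of mouse 4, exceeded all vehicle libraries (log2 fold change 2.63, SE 0.21, adjusted p = 5.31e-08).

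Muc5b reached 310.2, 391, 140.4 and 122 CPM with IPFc, above the 29.4 to 114 CPM of the vehicle libraries (log2 fold change 1.58, SE 0.20, adjusted p = 3.23e-05). Fitted without the block for the mouse, it had an adjusted p of 0.189.

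Muc1, Muc20 and Muc4 did not pass the test with IPFc. Muc1 was 223, 243, 239 and 223 CPM, with a log2 fold change of -0.08 (SE 0.10, adjusted p = 0.863), and Muc20 was 25.1, 28.0, 22.5 and 14.5 CPM, with a log2 fold change of -0.16 (SE 0.13, adjusted p = 0.718). Muc4 was 184, 212, 110.0 and 98.8 CPM, lower than vehicle in 3 of 4 mice (log2 fold change -0.39, SE 0.21, adjusted p = 0.452). It was called lower in 3 of 13 alternatives, with no filter on low counts (adjusted p = 0.00260), with only the groups compared (0.0175) and without the EC library of mouse 4 (0.0203). Spdef was at 2.56 to 3.09 CPM (log2 fold change 0.26, SE 0.24, adjusted p = 0.766). Muc5ac had 7 to 36 reads per library (at most 2.10 CPM, log2 fold change 0.92, SE 0.47, adjusted p = 0.411).

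The same libraries held more RNA of fibroblast markers with IPFc, 8 of 11 of which rose (summed level of the 12 listed, 1042 to 1789 CPM with vehicle and 1275 to 3136 CPM with IPFc). After subtraction of the fibroblast share, the log2 fold changes were 2.31 for Agr2, 2.73 for Fcgbp and 1.68 for Muc5b, and all 3 remained called.

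The direct comparison of IPFc with EC separated the members in both directions. Against EC, IPFc gave higher Agr2 (log2 difference 1.97, SE 0.12, adjusted p = 3.41e-10) and Fcgbp (2.68, SE 0.21, adjusted p = 1.83e-08), and lower Muc20 (-1.14, SE 0.13, adjusted p = 3.94e-06) and Muc1 (-0.65, SE 0.10, adjusted p = 0.000223). These 4 genes had this direction in all 4 mice and their calls in all 13 alternatives. Muc5b was higher with IPFc than with EC in all 4 mice (log2 difference 0.71, SE 0.19, adjusted p = 0.0395), a call lost in 9 of the 13 alternatives. Together 5 of 10 members were called, against 4.17% of all genes (2.40% higher and 1.76% lower). The difference of Spdef (-0.69, SE 0.23, adjusted p = 0.112) did not pass the test.

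**Figure D2:**
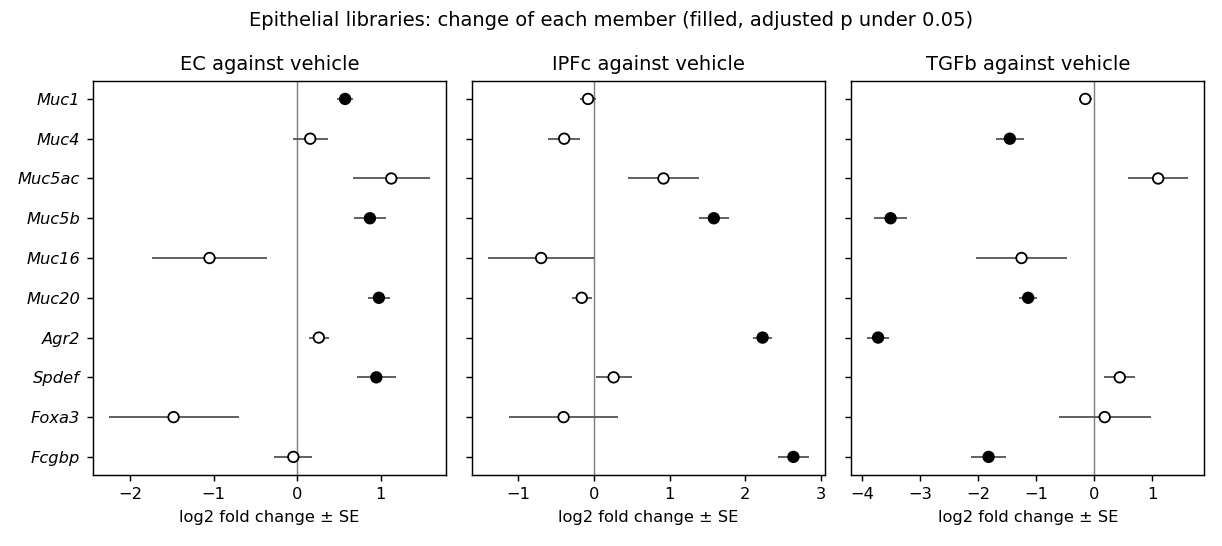
Log2 fold change of each member against vehicle in the epithelial libraries, with bars of 1 SE; filled points have an adjusted p under 0.05 (edgeR). With EC the filled points are Muc1, Muc5b, Muc20 and Spdef, with IPFc Muc5b, Agr2 and Fcgbp, and with TGF-β Muc4, Muc5b, Muc20, Agr2 and Fcgbp, all below 0.

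TGF-β, a factor known to drive epithelial cells away from their differentiated state, lowered 5 of the 10 members: Agr2, Muc5b, Fcgbp, Muc4 and Muc20. TGF-β changed much of the transcriptome, with 41.1% of all genes called and 20.1% called lower, and the members' count is read against that. The median log2 fold change was -1.19 over the members and 0.03 over all genes.

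Agr2 was 3.88, 1.13 and 0.967 CPM with TGF-β in mice 2, 3 and 4, far below the 15.2 to 36.4 CPM of the vehicle libraries (log2 fold change -3.72, SE 0.19, adjusted p = 5.55e-12). Muc5b was 12.2, 5.51 and 3.75 CPM against 29.4 to 114 CPM (log2 fold change -3.51, SE 0.28, adjusted p = 2.96e-09). Neither gene's groups overlapped.

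Fcgbp was 2.92, 0.81 and 0.242 CPM with TGF-β, lower than vehicle in all 3 mice although the ranges overlapped (log2 fold change -1.82, SE 0.31, adjusted p = 6.51e-05). Fitted without the block for the mouse, it had an adjusted p of 0.161. Muc4 was 98.2, 71.9 and 46.0 CPM (log2 fold change -1.45, SE 0.24, adjusted p = 5.36e-05) and Muc20 was 14.3, 12.8 and 8.22 CPM (log2 fold change -1.14, SE 0.15, adjusted p = 4.28e-06), both below every vehicle library.

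Muc1 did not follow, with 262, 249 and 205 CPM (log2 fold change -0.15, SE 0.11, adjusted p = 0.298). Spdef was 3.72, 3.00 and 2.90 CPM, higher than vehicle in all 3 mice without passing the test (log2 fold change 0.44, SE 0.27, adjusted p = 0.198). Muc5ac was 1.86, 1.46 and 1.33 CPM (11 to 35 reads), above every vehicle library but not called (log2 fold change 1.10, SE 0.52, adjusted p = 0.0984).

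Cell type markers moved with TGF-β as well. Of the fibroblast markers, 11 of 11 tested were higher in these epithelial libraries, with a summed level of 13124 to 14890.0 CPM against 1042 to 1789 CPM with vehicle, Thy1 being at 0 with TGF-β and Postn with vehicle. Of the epithelial markers 8 of 12 were lower (median log2 fold change -0.39), of the club cell markers 5 of 6 (summed level 559 to 792 against 1764 to 2358 CPM) and of the basal cell markers 4 of 5 (3.14 to 76.9 against 15.3 to 896 CPM). After subtraction of the fibroblast share, the log2 fold changes were -3.35 for Agr2, -3.08 for Muc5b, -1.47 for Fcgbp, -1.03 for Muc4 and -0.72 for Muc20, with all 5 still called, and Spdef was called higher (0.83, adjusted p = 0.0454). The part of the club and basal markers in these decreases was not tested.

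Set against each other, EC gave 6 members higher than TGF-β (Agr2, Muc5b, Muc20, Fcgbp, Muc4 and Muc1), where 43.1% of all genes were called and 20.9% called higher. IPFc gave 5 (all of these but Muc1) higher than TGF-β, where 37.2% were called and 18.6% called higher. Largest among the members were the differences of Agr2 and Muc5b between IPFc and TGF-β, 5.95 (SE 0.19) and 5.09 (SE 0.29) on the log2 scale. Muc1 had a log2 difference of 0.07 between IPFc and TGF-β (SE 0.11, adjusted p = 0.638).

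Muc16 and Foxa3 stayed near 0 in every group. Muc16 had 40 reads over the 4 epithelial vehicle libraries, 22 with EC, 25 with IPFc and 21 over the 3 TGF-β libraries, and at most 1.36 CPM in any library. Foxa3 had 25, 9, 18 and 22 reads and at most 0.85 CPM. With EC, Foxa3 had a log2 fold change of -1.48 (SE 0.78, adjusted p = 0.41) and Muc16 one of -1.05 (SE 0.69, adjusted p = 0.551). Their summed reads gave ratios of 0.377 (0.155 to 0.834) and 0.575 (0.326 to 0.992), intervals that cover counting error only.

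Across the 15 epithelial libraries, pairs of members differed in how alike their log2 CPM was. Muc5b and Agr2 were most alike (Pearson r 0.95), followed by Agr2 and Fcgbp (r 0.87), Muc4 and Muc20 (r 0.85) and Muc1 and Muc20 (r 0.83), while Muc1 and Agr2 (r 0.12) and Muc1 and Fcgbp (r 0.06) were least alike among the 6 members with at least 5 CPM in a group. These correlations describe 15 libraries that share 4 mice and 4 treatments. Muc4 and Muc20 also share 4973 bases, and the part of reads from there in their r was not tested. Among 11158 genes at a comparable level, the genes most like Agr2 were Bpifb1 (r 0.98), Eif4h (r 0.97) and Slc25a12 (r 0.96), and those most like Muc5b were Snd1, Lrrc59 and Nomo1 (r 0.97, 0.97 and 0.96). Fcgbp was most like St3gal4 (r 0.93), Btbd17 and Gna14 (both r 0.92). Muc20 was most like Tjp3 (r 0.96), Slc11a2 and Tnfrsf11a (both r 0.94), Muc4 most like Plxnb2 (r 0.97), Dnaaf5 and Crybg3 (both r 0.96), and Muc1 most like Hk2 (r 0.91), Csf3 (r 0.89) and Gm20186 (r 0.88).

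The mice differed too. Mouse 4 had the lowest Muc5b, Muc20 and Muc4 of its group in all 4 treatments, and its basal cell markers summed to 15.3, 28.8, 15.6 and 3.14 CPM with vehicle, EC, IPFc and TGF-β. In the other mice they summed to 207 to 896 CPM outside TGF-β. Its club cell markers were closer, at 1764 against 1837 to 2358 CPM with vehicle. The part of this in the mouse's mucin levels was not tested.

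**Figure D3:**
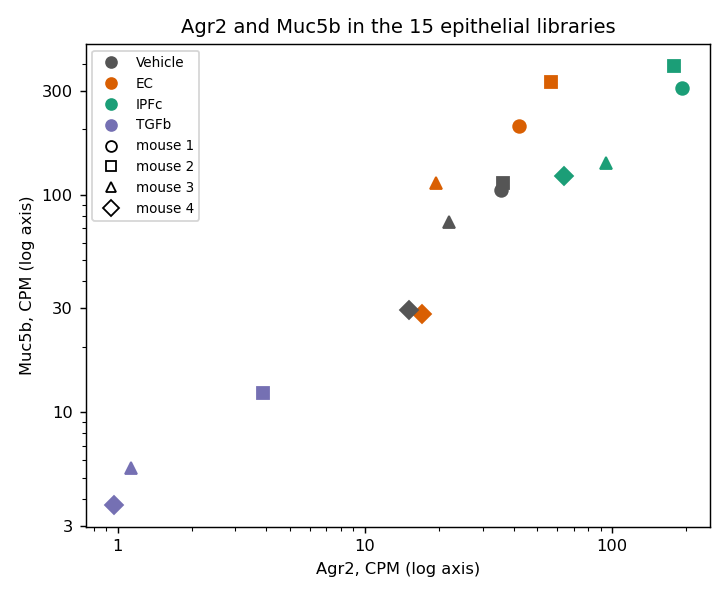
Agr2 against Muc5b, both in CPM on log axes, in the 15 epithelial libraries, with color for the treatment and shape for the mouse. TGF-β libraries lie at the lower left (Agr2 at most 3.88 CPM) and IPFc libraries at the right, where Agr2 is at least 64.2 CPM; the EC library of mouse 2 has 330.6 CPM of Muc5b at 56.6 CPM of Agr2.

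The wider mucus program was followed with lists of genes around the members. Of 22 other goblet cell products, 19 had enough reads to be tested. With EC, 8 were higher and 2 lower (median log2 fold change 0.41), with IPFc 9 were higher and 1 lower (median 0.56), and with TGF-β 1 was higher and 13 lower (median -2.65). Of all genes, 4.41% were called with EC (1.96% higher), 4.10% with IPFc (2.57% higher) and 41.1% with TGF-β (20.1% lower). All-gene medians are those given above.

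Under IPFc the strongest change was that of Clca1, a secreted goblet cell protease, with 39.6 to 141 CPM against at most 0.295 CPM with vehicle and 0.364 CPM with EC (log2 fold change 9.15, SE 0.21, adjusted p = 2.44e-17). Slc26a4, the anion exchanger pendrin, was at 164 to 304 CPM with IPFc, 20.3 to 39.8 CPM with EC and 3.84 to 5.89 CPM with vehicle, and it rose with both cocktails (log2 fold changes 5.66 and 2.65). Retnla and Bpifb1 rose with IPFc as well (log2 fold changes 2.82 and 2.39).

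The genes with the smallest adjusted p with EC overlapped those with IPFc in Slc26a4. Pigr, the receptor that carries immunoglobulin A into mucus, was at 125 to 486 CPM with EC against 8.06 to 44.5 CPM with vehicle (log2 fold change 3.57, SE 0.13, adjusted p = 1.74e-13). The trefoil peptide Tff2 was at 12.5 to 29.3 CPM against 1.13 to 2.46 CPM (log2 fold change 3.25), and lactoferrin (Ltf) and Slc26a4 rose by 1.65 and 2.65 on the log2 scale. Compared directly, 6 of the 19 were higher and 4 lower with IPFc than with EC, where 4.17% of all genes were called. Clca1, Retnla, Bpifa1 and Slc26a4 had the smallest adjusted p, with log2 differences of 8.74, 3.47, 2.22 and 3.01. With TGF-β, the decreases with the smallest adjusted p were those of Retnla, Bpifa1, Pigr and Ltf (log2 fold changes -5.62, -3.23, -3.20 and -2.47). They were not the largest by fold change throughout, as the list median was -2.65.

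Of 21 regulators of goblet cells, all tested, 5 were higher and 1 lower with EC (4.41% of all genes called), 5 were higher with IPFc (4.10%), and 4 were higher and 12 lower with TGF-β (41.1% called and 20.1% called lower). Il13ra2, the decoy receptor of IL-13, rose with EC from 0.591 to 1.91 CPM to between 12.1 and 22.2 CPM (log2 fold change 3.72, SE 0.29, adjusted p = 2.76e-08), and by a log2 fold change of 1.73 with IPFc. Il4ra, a subunit of the IL-4 and IL-13 receptors, rose by 0.47 on the log2 scale with each cocktail. With TGF-β, Foxa2, a factor known to restrain goblet cell differentiation, had a log2 fold change of -0.77, and Elf3, also among the epithelial markers, had one of -1.15, while Sox9 and Egfr had log2 fold changes of 2.94 and 2.20.

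Genes for the decoration and release of mucins were called mostly with TGF-β, where 41.1% of all genes were called, against 4.41% with EC and 4.10% with IPFc. Of 30 genes for mucin O-glycosylation, 1 was called with EC, 3 were higher and 2 lower with IPFc, and 10 were higher and 8 lower with TGF-β. St3gal4, a sialyltransferase, rose with IPFc (log2 fold change 0.75, SE 0.09, adjusted p = 1.17e-05), and Gcnt3, which builds the mucin core branches, fell (-0.85, SE 0.12, adjusted p = 9.08e-05). Of 19 genes for granule exocytosis, 2 were lower with EC, 1 was lower with IPFc (Unc13d, in both), and 7 were higher and 5 lower with TGF-β, among them Rab27a with -2.17 and Marcks with 2.13.

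Of 12 other mucins, 10 were in the files and 3 had enough reads to be tested. With TGF-β, Mucl3 fell from a mean of 2.30 to 0.415 CPM (log2 fold change -2.31, adjusted p = 0.00174). Muc13 was at most 0.242 CPM in the vehicle libraries and had no reads with TGF-β.

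**Figure D4:**
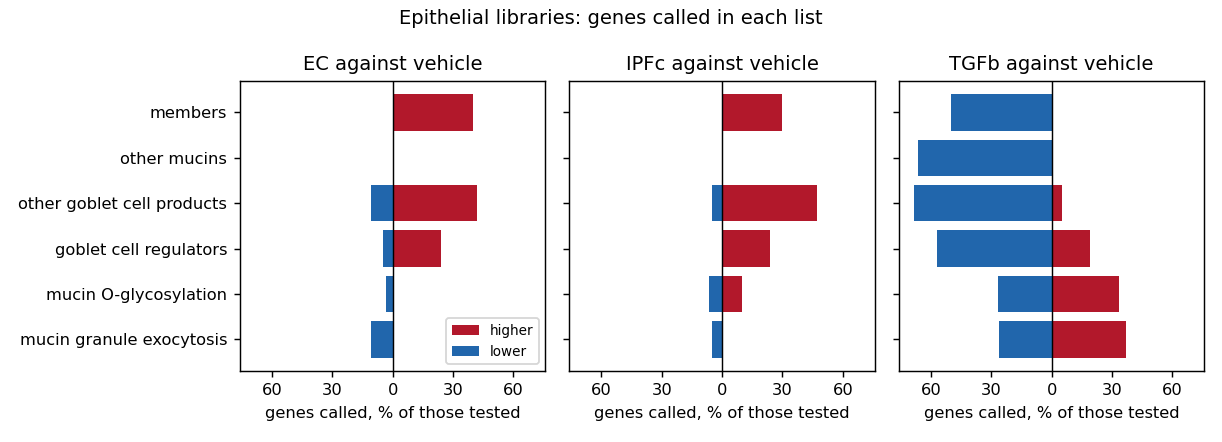
Share of the tested genes of each list that were called higher (red, right) or lower (blue, left) than vehicle in the epithelial libraries, in percent. Members and other goblet cell products lie mostly to the right with EC and IPFc and to the left with TGF-β; the glycosylation and exocytosis lists split both ways with TGF-β.

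The members were next compared between the fractions, to ask whether the signal is epithelial. All 10 were higher in epithelial than in fibroblast libraries in each of the 4 treatments, where 56.0% of all genes were called with vehicle, 49.1% with EC, 58.3% with IPFc and 48.2% with TGF-β. Called as higher in epithelial libraries were 27.8, 24.0, 29.5 and 26.0% of all genes. These are group differences. In the EC culture of mouse 4, Muc4 was 52.0 CPM in the epithelial and 80.9 CPM in the fibroblast library and Muc1 was 241 and 248 CPM, and Muc5ac (3 and 7 reads) and Fcgbp (7 and 14 reads) were also lower in the epithelial library. The log2 differences ran from 1.76 (Spdef) to 3.84 (Muc5b) with vehicle and from 3.37 (Spdef) to 7.83 (Agr2) with TGF-β. Muc5ac, Muc16 and Foxa3 passed here on 0 to 7 reads per fibroblast library, and each lost its call in at least 1 treatment when mouse 1, 2 or 3 was left out. Fcgbp lost its call with TGF-β without mouse 2 (adjusted p = 0.0910), on 0 to 2 reads per fibroblast library.

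In the fibroblast libraries, 8 members could be tested, since Muc16 and Foxa3 had at most 2 reads in any of them. With EC, Muc5b and Muc1 rose, 2 of 8, against 7.11% of all genes called and 4.28% called higher. Muc5b was 1.34, 5.96 and 7.11 CPM with vehicle in mice 1, 3 and 4, and 2.15, 17.1, 25.1 and 23.9 CPM with EC in mice 1 to 4 (log2 fold change 1.93, SE 0.34, adjusted p = 0.00252). Muc1 was 48.2, 72.1 and 109 CPM with vehicle and 58.5, 136, 165 and 248 CPM with EC (log2 fold change 0.87, SE 0.22, adjusted p = 0.0275).

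Epithelial markers rose in these same libraries, 11 of 12, with a median log2 fold change of 1.22 and a summed level of 1419 to 2508 CPM with vehicle and 2822 to 5164 CPM with EC. The epithelial share was 13.7 to 25.5% with vehicle and 32.7 to 53.7% with EC. After its subtraction 6 members could still be tested and 0 were called by edgeR (1 at an unadjusted p under 0.05), and Muc1 had a log2 fold change of -0.35 (SE 1.41, adjusted p = 0.975). Muc5b had a log2 fold change of 8.47 (SE 1.58, adjusted p = 0.461), a value that rests on the EC library of mouse 4. There it stood at 84.3% of its level in the epithelial library, above the marker share of 53.7%. In every vehicle library and the other EC libraries it lay below the share, and subtraction left 0 reads. Its direction after subtraction therefore cannot be judged. Without mouse 3 or mouse 4 edgeR called 0 members (3 and 2 at an unadjusted p under 0.05), while DESeq2 on all libraries called 2, and without the EC library of mouse 1, which had the fewest reads, 4 were called.

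With IPFc, 0 of 8 members were called in the fibroblast libraries by edgeR, against 0.449% of all genes. An unadjusted p under 0.05 was found for 4 of them, and DESeq2 also called 0, with 4 at that level. Of these, Agr2 was 3.15, 3.64 and 2.95 CPM with vehicle and 5.57, 4.50, 4.77 and 9.22 CPM with IPFc (log2 fold change 1.01, SE 0.28, adjusted p = 0.238), so that every IPFc library exceeded every vehicle library. Fcgbp (log2 fold change 2.18, adjusted p = 0.204), Muc5b (0.93, adjusted p = 0.485) and Muc20 (-1.05, adjusted p = 0.476) were the others. The epithelial share was 10.7 to 28.2% with IPFc.

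With TGF-β, Agr2, Muc5b, Muc4, Muc20 and Muc1 fell, 5 of 8, against 19.2% of all genes and 12.8% called lower. Agr2 had 133 reads over the 3 vehicle libraries and 0 over the 4 TGF-β libraries, at least 64.3-fold lower when 3 reads over the group are taken as the limit. Muc5b had 0, 0, 1 and 2 reads with TGF-β against 17, 77 and 111 with vehicle, and Muc1 was 3.33, 14.8, 5.82 and 12.1 CPM (log2 fold change -3.16, SE 0.24, adjusted p = 5.32e-08). Muc4 was 14.9, 36.3 and 54.2 CPM with vehicle and 0.731, 2.34, 1.10 and 1.02 CPM with TGF-β (log2 fold change -4.71, SE 0.45, adjusted p = 6.13e-07). No library of one group reached the range of the other for these genes. Muc20 had 11 reads in all with TGF-β (log2 fold change -4.51, SE 0.51, adjusted p = 4.09e-06). Spdef (-1.43, adjusted p = 0.173) and Fcgbp (-2.28, adjusted p = 0.0659) did not pass the test. Of the epithelial markers 12 of 12 fell (median log2 fold change -3.60), to a summed level of 52.3 to 183 CPM, and the epithelial share was 0.77 to 2.92%. After its subtraction edgeR called 0 of 6 members (2 at an unadjusted p under 0.05), while DESeq2 without subtraction called 5. The log2 fold changes after subtraction were -3.43 for Muc1 (SE 1.53), -5.87 for Muc4 (SE 2.65) and -4.68 for Muc20 (SE 1.39), as large as before but with larger errors. Agr2 and Muc5b had no value after subtraction and were called in the other 12 alternatives.

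The members did not all sit at the share of the epithelial markers in the fibroblast libraries. With vehicle, Muc1 reached 20.8, 24.5 and 49.2% of its level in the epithelial library of the same culture, above all 12 markers in each of the 3 libraries. Muc5b stood at 1.28, 7.95 and 24.2%. With EC it was at 1.04, 5.17, 22.1 and 84.3% in mice 1 to 4, with marker shares of 34.7, 32.9, 32.7 and 53.7%. With IPFc it was at 1.58, 1.36, 7.52 and 8.22% beside shares of 10.7, 12.5, 14.3 and 28.2%, below all markers in all 4 libraries. Agr2 with IPFc was at 2.90, 2.53, 5.06 and 14.4%. Sftpc, the surfactant gene that defines type 2 alveolar cells, was at 51.9 to 91.1% with vehicle and at 73.7 to 183% with EC, and Krt5, a basal cell keratin, at most at 4.34% in any library with a partner value.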

How the data were processed

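Whole-number counts of reads per gene for 30 libraries were deposited by the authors after trimming with Trimmomatic 0.30. The mouse build is GRCm38 per the methods and GRCm39 per the labels. The aligner and counter are not given in the sources used here. From these counts, edgeR 4.0.16 in R 4.3.3 was run with TMM normalization and two-sided quasi-likelihood tests. One fit per fraction (15 libraries, 8 residual degrees of freedom) and one over all 30 libraries carried the mouse as a block. Genes with a mean count of at least 1 were tested, with Benjamini-Hochberg adjustment over all of them and a threshold of 0.05. The pairing comes from the labels, which give the mouse of each library. Deviations from group means had a mean correlation of 0.29 for libraries of the same mouse and of -0.09 for libraries of different mice (epithelial), or 0.32 and -0.10 (fibroblast). No library repeated another of its own group (chi-square per degree of freedom at least 5.76). Libraries of different groups were not compared in this way. On simulated counts for IPFc against vehicle, 199 of 200 epithelial changes of 1 on the log2 scale were found with 8 false calls, and 197 with 11 in fibroblast libraries. These changes were placed only in genes with many reads, with the same spread for all genes and no RNA of the other fraction. The simulation therefore does not cover members with few reads. Limits at 0 reads use 3 counts and cover counting error only, as no molecular identifiers are described.

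The members and lists were chosen with earlier results of these data known. All 10 members are named, and of each further list at most 4 genes per comparison, those with the smallest adjusted p, plus defining markers and, per member, the 3 genes most alike (log2 of CPM + 1). Alternatives were DESeq2 1.42.0, its size factors, other filters, no block, robust estimation, only the groups compared, a culture block, each mouse left out and subtraction of the other fraction's RNA. Leaving out the EC library of mouse 4 (epithelial) or of mouse 1 (fibroblast) was chosen after seeing the data.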

Additional observations from a re-analysis of the deposited data

Results flagged for a closer look

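In the 57 groups of member levels with 4 libraries, 7 held a library apart from the other 3 (gap to the nearest library over the whole range above Dixon's critical value for 4 samples). For normally distributed levels chance gives about 1 in 20. That rate does not apply where 1 or 2 reads stand beside libraries with none, since such a group always exceeds the critical value. Muc4 in the epithelial vehicle library of mouse 4 was 123 CPM (1527 reads), against 212 to 220.2 CPM in the other mice. Fcgbp in the fibroblast IPFc library of mouse 3 was 2.86 CPM (48 reads), against 0.586 to 0.93 CPM. The remaining 5 are 1 or 2 reads where the other libraries had none: Muc5ac and Muc16 in the fibroblast IPFc library of mouse 3 (0.119 CPM each), Muc16 in the fibroblast EC library of mouse 2 (0.0718 CPM), Foxa3 in the fibroblast IPFc library of mouse 2 (0.0749 CPM) and Foxa3 in the fibroblast TGF-β library of mouse 4 (0.060 CPM).

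Spdef had fold changes of opposite sign with TGF-β in the fractions. It had a log2 fold change of 0.44 in the epithelial libraries, higher in every mouse, and of -1.43 in the fibroblast libraries, lower in every mouse. The epithelial ranges overlapped, and the fibroblast libraries held 30 reads of Spdef in all with vehicle and 17 with TGF-β. The epithelial share in the fibroblast libraries was 13.7 to 25.5% with vehicle and 0.77 to 2.92% with TGF-β. Neither change passed the test, and the difference between the fractions was not tested.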

How the results depend on the processing

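Of the member values called against vehicle, 143 of 156 epithelial and 78 of 89 fibroblast values stayed called in the same direction over the alternatives. With EC, 4 epithelial members were called, but 2 with no replicate block or after subtraction of the fibroblast share, and 2 to 5 when a mouse was left out. In the fibroblast libraries with EC, 2 were called, but 4 with no filter on low counts or without the EC library of mouse 1, 0 with no replicate block or after subtraction, and 0 to 4 when a mouse was left out. With IPFc, 0 fibroblast members became 2 with no filter or with only the groups compared and 1 without the EC library of mouse 1. With TGF-β, 5 became 0 after subtraction, where Muc1, Muc4 and Muc20 kept log2 fold changes of -3.43, -5.87 and -4.68 and Agr2 and Muc5b gave no value.

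The block for the mouse carried further calls: without it, Muc5b with IPFc (log2 fold change 1.57, adjusted p = 0.189) and Fcgbp with TGF-β (-1.59, adjusted p = 0.161) were lost in the epithelial libraries, and Fcgbp with EC was 0.15.

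Uncalled log2 fold changes turned direction in some alternatives. In the epithelial libraries, Fcgbp with EC was 0.00788 without the EC library of mouse 4, and Muc1 with TGF-β was 0.27 after subtraction. Leaving out a mouse gave -0.077 to 0.46 for Muc4 and -0.42 to 0.34 for Fcgbp with EC, -0.96 to 0.073 for Foxa3 with IPFc and -0.13 to 0.84 for Foxa3 with TGF-β, which was -0.11 without mouse 2. In the fibroblast libraries, subtraction gave -0.35 for Muc1 (called before it) and -0.88 for Muc20 with EC, and 1.06 for Fcgbp with TGF-β. Leaving out a mouse gave -0.30 to 2.45 for Muc5ac and -0.087 to 1.20 for Spdef with EC, -0.46 to 0.28 for Spdef with IPFc and -2.56 to 0.16 for Muc5ac with TGF-β. The causes were not tested.

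Over all genes, the epithelial calls with EC, IPFc and TGF-β (794, 739 and 7400) were 315, 157 and 4474 after subtraction, and with no block 391 with EC and 297 with IPFc. IPFc had 1118 with no filter. IPFc against EC had 751 (1156 with no filter, 422 with no block, 371 after subtraction). EC against TGF-β had 7764 and IPFc against TGF-β 6713 (5129 and 4453 after subtraction). The fibroblast calls were 1284 with EC (2040 by DESeq2, 2048 with no filter, 321 with no block, 41 after subtraction), 81 with IPFc (182, 251, 35 and 7) and 3457 with TGF-β (1034 after subtraction). Leaving out a mouse gave 421 to 727 epithelial calls with EC, 352 to 801 with IPFc and 451 to 740.0 for IPFc against EC, and 217 to 2053, 14 to 128 and 2148 to 4089 fibroblast calls with EC, IPFc and TGF-β. The lowest were without mouse 1 (epithelial) and mouse 3 (fibroblast), and without mouse 4 the fibroblast calls were 233, 15 and 2225. Without the EC library of mouse 1 they were 1983 with EC and 263 with IPFc. Muc5ac, Muc16 and Foxa3 had at most 58 reads in any library.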
